A study of Mus musculus with 12 samples.

Results

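Left ventricles of double transgenic (DTG) mice given isoproterenol were compared with left ventricles of DTG mice given vehicle, 3 arrays against 3, out of 12 arrays in the series. The DTG ISO arrays are those titled with the genotype GRK-beta1AR/miR150 and ISO, and the DTG vehicle arrays are those titled with the same genotype and Veh. The background strain was C57BL/6J, and in every mouse a heart-specific transgene expressed a mutated β1-adrenergic receptor (GRK-β1AR) without the phosphorylation sites for G protein-coupled receptor kinases. DTG mice carried in addition a miR-150 transgene under the CAG promoter, which is active in most cell types and not restricted to cardiomyocytes. Which cells expressed the microRNA was not checked here. Isoproterenol (ISO) or its vehicle was delivered by a mini-osmotic pump for 1 week. The labels gave DTG ISO 1 and 2 as male and DTG ISO 3 as female, at 10, 11 and 12 weeks of age. DTG vehicle 1 was labelled female and DTG vehicle 2 and 3 male, all at 10 weeks. The other 6 arrays came from mice with the receptor transgene alone (TG), 3 with ISO and 3 with vehicle, aged 9 to 12 weeks. Because every mouse carried the mutant receptor, no comparison here includes a heart with an unmodified receptor.

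The β1-adrenergic receptor is the main receptor through which catecholamines raise the rate and force of the heartbeat. On binding an agonist it couples to a stimulatory G protein, and after phosphorylation by receptor kinases it recruits β-arrestin, a scaffold that ends G protein coupling and starts signals of its own. Isoproterenol is a synthetic agonist of β-adrenergic receptors, and its sustained delivery is a common model of catecholamine stress in the mouse heart. miR-150 is a microRNA, a short RNA that lowers the stability and translation of mRNAs with matching sites, and it is best known from lymphocytes and from injured hearts. The comparison asked which transcripts differed after ISO when miR-150 was overexpressed.

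The arrays carried 60915 probes for mRNAs and long noncoding RNAs, sorted here by the prefix of the probe name. The classes were ASMM10P with 58141 probes, ASMM10UP with 923, humanlincRNA with 1104, mouselincRNA with 649, MM9LINCRNAEXON with 83 and housekeeping genes with 15. The 3 lincRNA prefixes name long intergenic noncoding RNAs, which lie between protein-coding genes. Each level below is the log2 processed signal minus the 75th percentile of its array, so that 0 marks the 75th percentile and negative levels lie under it. Probes that the scanner software marked as well above background on 3 or more of the 12 arrays were tested. Except for the housekeeping genes, probes carried no gene names, so the transgenes, cardiac markers and other cell types of the ventricle were not checked. In whole tissue, fewer cells of a type and less RNA per cell cannot be told apart.

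Some arrays did not lie closest to their own group. DTG ISO 1 to 3 and DTG vehicle 3 were scanned in run 1, while DTG vehicle 1 and 2 were scanned in run 2, on another slide as inferred from array positions. Across 44739 probes with a value on every array, DTG vehicle 3 correlated at 0.982 to 0.989 with the DTG ISO arrays and at 0.965 and 0.973 with the other DTG vehicle arrays. The main results below are therefore also given against DTG vehicle 3 alone or against DTG vehicle 1 and 2 alone. The contrast of ISO with vehicle had both groups only in run 1, where DTG vehicle 3 was the lone vehicle array. Among the TG arrays, TG ISO 3 correlated at 0.981 with TG vehicle 1 and 2 and at 0.940 and 0.957 with the other TG ISO arrays. TG vehicle 3 correlated at 0.985 and 0.982 with TG ISO 1 and 2 and at 0.936 and 0.937 with the other TG vehicle arrays. Both arrays thus lay closer to the other treatment than to their label, and they were the only arrays of scan run 3. Whether their labels are right was not tested, so each TG difference and interaction below is that of the libraries labelled TG ISO and TG vehicle. Both enter the estimate of the spread.

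No probe passed the test in DTG hearts in the main fit. Of 45154 probes tested, 0 (0%) passed limma's adjusted threshold of 0.05, with 0.817 as the smallest adjusted p. The adjusted count was 1677 with array weights. It was also above 0 with a scan or slide block and without DTG vehicle 3, as described below. At an unadjusted p under 0.05 there were 2636 probes, 1784 (3.95%) higher and 852 (1.89%) lower with ISO. The 3 ISO arrays lay above all 3 vehicle arrays for 3209 probes (7.11%) and below all of them for 2648 (5.86%). The split depended on the processing. With the filter on all 12 arrays it was 799 higher and 840 lower, and with scaling to the median of bright probes 1714 and 915. Quantile normalization gave 1203 higher and 1279 lower at the unadjusted threshold, the authors' own values 1320 and 1262, and normexp background correction 845 and 1094. The unpaired t-test named in the study's methods gave 0 probes after Benjamini-Hochberg adjustment and 1276 higher and 1139 lower before it.

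The probes at an unadjusted p under 0.05 were set against each part of the vehicle group. These values describe probes chosen by the same contrast and test nothing. The 1784 higher probes had a median difference of 1.05 on the log2 scale, which was 1.36 against DTG vehicle 1 and 2 and 0.23 against DTG vehicle 3. Of them, 1460 (81.8%) had a higher ISO mean than DTG vehicle 3, and 935 (52.4%) had no overlap between the groups. The 852 lower probes had a median difference of -0.75, which was -0.95 against DTG vehicle 1 and 2 and -0.32 against DTG vehicle 3. In this direction 778 (91.3%) had an ISO mean under DTG vehicle 3, and 533 (62.6%) had no overlap.

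A smaller set stood at least 2-fold from both parts of the vehicle group with no overlap between the arrays, a criterion chosen after the values were seen. It held 111 probes higher with ISO (0.246% of those tested) and 57 lower (0.126%). By class there were 103 higher and 56 lower ASMM10P probes, 3 and 0 ASMM10UP probes, 4 and 1 humanlincRNA probes, and 1 and 0 mouselincRNA probes. No MM9LINCRNAEXON probe and no housekeeping gene was among them.

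Without DTG vehicle 3, limma called 803 of the probes (1.78%), 634 higher and 169 lower with ISO. This fit compared ISO arrays of scan run 1 with vehicle arrays of scan run 2, so treatment and scan run cannot be told apart in it. The 803 probes differed by a median of 1.74 on the log2 scale from DTG vehicle 1 and 2, signed by the direction of the call, and by -0.01 from DTG vehicle 3. Only 390 of them had a difference from DTG vehicle 3 in the direction of the call. By class, 764 ASMM10P probes (1.74%), 10 ASMM10UP probes (2.25%), 21 humanlincRNA probes (5.51%), 7 mouselincRNA probes (2.89%) and 1 MM9LINCRNAEXON probe were called. All of the called lincRNA probes were higher with ISO. In scan run 1 alone, the 3 ISO arrays against DTG vehicle 3 gave 0 adjusted calls and 943 higher and 715 lower at the unadjusted threshold, with the lone vehicle array assumed to vary like the ISO arrays.

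ASMM10P, the class that holds nearly all probes, was centred close to 0. Of its probes, 44024 (75.7%) were tested, with a median difference of 0.04 on the log2 scale, quartiles of -0.19 and 0.30, and 54% of probes higher with ISO. The median was 0.04 against DTG vehicle 1 and 2 and 0.0038 against DTG vehicle 3. Its median level was -1.41, -1.41 and -1.37 on the ISO arrays. On the vehicle arrays it was -1.47, -1.46 and -1.40, so the groups overlapped at DTG vehicle 3. At the unadjusted threshold 1691 probes (3.84%) were higher and 837 (1.9%) lower, beside 3.95% and 1.89% over all tested probes.

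ASMM10UP probes were dimmer and showed a like spread. Of 923, 444 (48.1%) were tested, with a median difference of 0.06 on the log2 scale and quartiles of -0.18 and 0.40. Against DTG vehicle 1 and 2 the median was 0.06, and against DTG vehicle 3 it was -0.02. The median level of the class was -3.00, -2.98 and -2.78 on the ISO arrays and -2.97, -3.01 and -2.84 on the vehicle arrays. The groups were interleaved. At the unadjusted threshold 19 (4.28%) were higher and 6 (1.35%) lower, near the 3.95% and 1.89% over all tested probes.

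The tested lincRNA probes had larger median differences than all tested probes at this scaling and filter, which was not tested and did not hold against DTG vehicle 3. With no filter it did not hold for humanlincRNA and mouselincRNA. It then held only for the small MM9LINCRNAEXON class, at 0.07 beside -0.008 over all probes. Among 381 tested humanlincRNA probes, 34.5% of the class, the median difference was 0.32 on the log2 scale, with quartiles of -0.01 and 0.79, and 74.3% of probes were higher with ISO. Their median level was -3.30, -3.18 and -3.16 on DTG ISO 1, 2 and 3. On DTG vehicle 1, 2 and 3 it was -3.80, -3.79 and -3.24. DTG vehicle 3 fell among the ISO arrays and apart from the other vehicle arrays. The median difference was 0.51 against DTG vehicle 1 and 2 and -0.05 against DTG vehicle 3, while DTG vehicle 3 itself stood 0.60 above DTG vehicle 1 and 2. At the unadjusted threshold 47 (12.3%) were higher and 4 (1.05%) lower, and 43 (11.3%) lay above and 12 (3.15%) below all vehicle arrays without overlap. Over all tested probes these shares were 3.95%, 1.89%, 7.11% and 5.86%. In the dimmest quartile of level, which held 56.2% of the class, they were 8.58%, 1.14%, 10.5% and 3.01%. None passed after adjustment.

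Among 242 tested mouselincRNA probes (37.3%), the median difference was 0.28 on the log2 scale and 71.1% of probes were higher with ISO. The class stood at -3.26, -3.26 and -3.17 on the ISO arrays. It stood at -3.71, -3.90 and -3.09 on the vehicle arrays, so that DTG vehicle 3 was the highest of all 6. The median difference was 0.44 against DTG vehicle 1 and 2 and -0.06 against DTG vehicle 3. At the unadjusted threshold 23 (9.5%) were higher and 3 (1.24%) lower, beside 3.95% and 1.89% over all tested probes.

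The 48 tested MM9LINCRNAEXON probes, named for exons of lincRNAs on the mm9 genome build, had a median difference of 0.16 on the log2 scale. Their median level was -2.78, -2.83 and -2.90 with ISO and -3.14, -3.19 and -2.64 with vehicle. DTG vehicle 3 was again the highest array. The median difference was 0.36 against DTG vehicle 1 and 2 and -0.03 against DTG vehicle 3. Over the whole vehicle group it was 0.04 under quantile normalization and -0.09 under normexp. At the unadjusted threshold 4 (8.33%) were higher and 2 (4.17%) lower, where the shares over all tested probes were 3.95% and 1.89%.

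**Figure D1:**
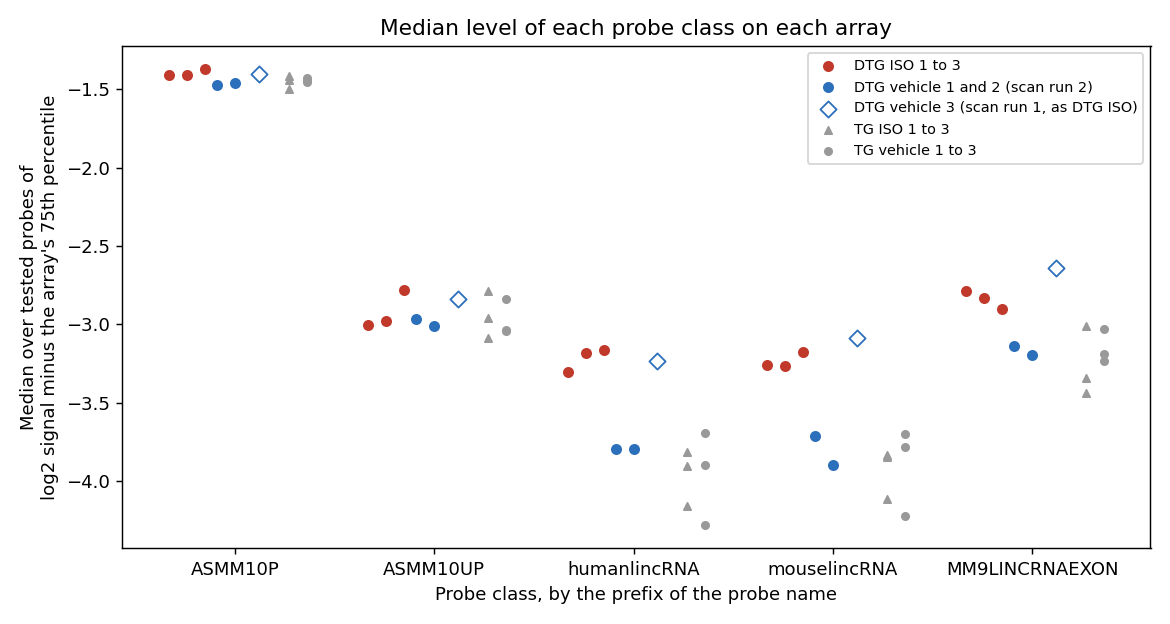
Median level of the tested probes of each class on each of the 12 arrays, as log2 signal minus the 75th percentile of the array; red points are DTG ISO, filled blue points DTG vehicle 1 and 2, the open diamond DTG vehicle 3, and grey symbols the TG arrays. In the humanlincRNA class the 4 arrays of scan run 1 sit between -3.30 and -3.16 and the other 8 between -4.28 and -3.69.

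Across all 12 arrays, the level of the lincRNA classes moved with the scan run under the main processing. The 4 arrays of run 1 had humanlincRNA medians of -3.30 to -3.16, and the other 8 arrays, DTG vehicle 1 and 2 among them, -4.28 to -3.69. For mouselincRNA the ranges were -3.26 to -3.09 and -4.22 to -3.70. The ranges did not overlap in either class. The same held for ASMM10P by a narrow margin, at -1.409 to -1.368 against -1.500 to -1.414, and for the dimmest quartile of all tested probes, at -4.21 to -4.07 against -4.81 to -4.38. Run 1 held no TG array and 3 of its 4 arrays were ISO arrays, so the parts of scan run, slide, genotype and treatment cannot be told apart here. After quantile normalization the ranges stayed apart, at 5.12 to 5.23 against 4.36 to 4.89 for humanlincRNA, on that scale. Under normexp background correction they overlapped, at -2.35 to -2.17 against -2.54 to -1.91. With no filter they overlapped as well, at -6.54 to -6.07 against -7.01 to -5.41 for humanlincRNA and -6.06 to -5.73 against -6.98 to -5.41 for mouselincRNA. With the filter on all 12 arrays they were apart for humanlincRNA, at -1.27 to -1.10 against -2.19 to -1.42, and overlapped for mouselincRNA, at -1.45 to -1.30 against -2.16 to -1.22.

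The excess of higher lincRNA probes also varied with the filter and the processing. With no filter on dim probes, the median difference between DTG ISO and DTG vehicle was -0.11 over all 1104 humanlincRNA probes and -0.07 over all 649 mouselincRNA probes. Of these probes, 561 and 293 stood well above background on none of the 6 DTG arrays. The unfiltered medians thus rest in large part on probes near background. With the filter on all 12 arrays, the median difference was 0.12 over 126 humanlincRNA probes and 0.06 over 89 mouselincRNA probes. A probe could enter the test through 3 detections on the ISO arrays alone, and 56.2% of the tested humanlincRNA probes lay in the dimmest quartile of level. Under normexp the medians were -0.05 and -0.07, beside a median of -0.07 over all probes. Under quantile normalization they were 0.18 and 0.12, beside -0.02 over all probes.

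**Figure D2:**
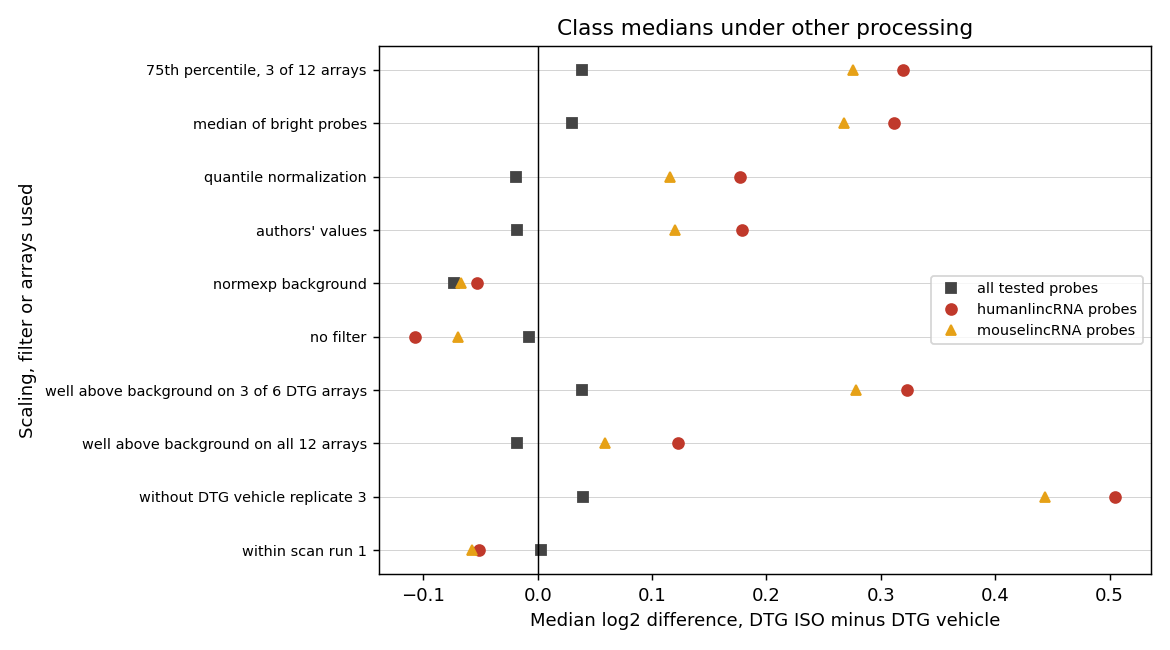
Median log2 difference between DTG ISO and DTG vehicle over all tested probes (squares), humanlincRNA probes (circles) and mouselincRNA probes (triangles), by the scaling, the filter or the arrays used. The humanlincRNA median runs from -0.11 with no filter to 0.51 without DTG vehicle 3, and the median of all probes lies between -0.07 and 0.04 in the settings plotted.

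Most lincRNA loci had a probe for each strand, and both strands of a locus need not be transcribed. The 1836 lincRNA probes covered 960 loci, 876 of them with 2 probes. Tested probes for the plus strand, 326 in number, had a median difference of 0.31 on the log2 scale, and the 345 for the minus strand 0.28. Both strands were tested at 120 loci, where both were higher with ISO at 64, both lower at 9 and opposite at 47. Across these loci the differences of the strands correlated at 0.133 and their levels at 0.214. The loci share the same 12 arrays and are not independent, so these values are a description.

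The difference between ISO and vehicle varied with signal level. In the dimmest quartile of the tested probes, with mean levels of -6.30 to -3.42, the median difference was 0.26 on the log2 scale and 69.2% of 11289 probes were higher with ISO. It was 0.07 in quartile 2 and -0.01 in quartile 3. In the brightest quartile, with levels of 0.92 to 9.55, it was -0.06 and 41.4% of probes were higher. Dim probes thus lay mostly above vehicle and bright probes mostly below. At the unadjusted threshold the counts of higher and lower probes were 969 and 129 in quartile 1, 420 and 194 in quartile 2, 257 and 256 in quartile 3, and 138 and 273 in quartile 4.

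This slope was found against DTG vehicle 1 and 2 and not against DTG vehicle 3. Against DTG vehicle 1 and 2 the medians of quartiles 1 to 4 were 0.38, 0.09, -0.04 and -0.10. Against DTG vehicle 3 they were -0.01, 0.01, 0.01 and -0.002. DTG vehicle 3 minus DTG vehicle 1 and 2 gave 0.37, 0.08, -0.06 and -0.12, nearly the size of the differences of the ISO arrays from those arrays. The median level of quartile 1 was -4.21, -4.17 and -4.07 on the ISO arrays and -4.55, -4.45 and -4.15 on the vehicle arrays. In TG hearts the same medians of ISO minus vehicle were 0.01, -0.0004, -0.02 and -0.01, values that include TG ISO 3 and TG vehicle 3. For quartile 1 the array medians were -4.49, -4.38 and -4.69 on TG ISO 1, 2 and 3 and -4.81, -4.51 and -4.48 on TG vehicle 1, 2 and 3. TG ISO 3 was the lowest of its group and TG vehicle 3 the highest of its own. Under quantile normalization the median of quartile 1 in DTG hearts was 0.04, and under normexp it was -0.14. With the filter on all 12 arrays, at the same scaling, it was -0.11.

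**Figure D3:**
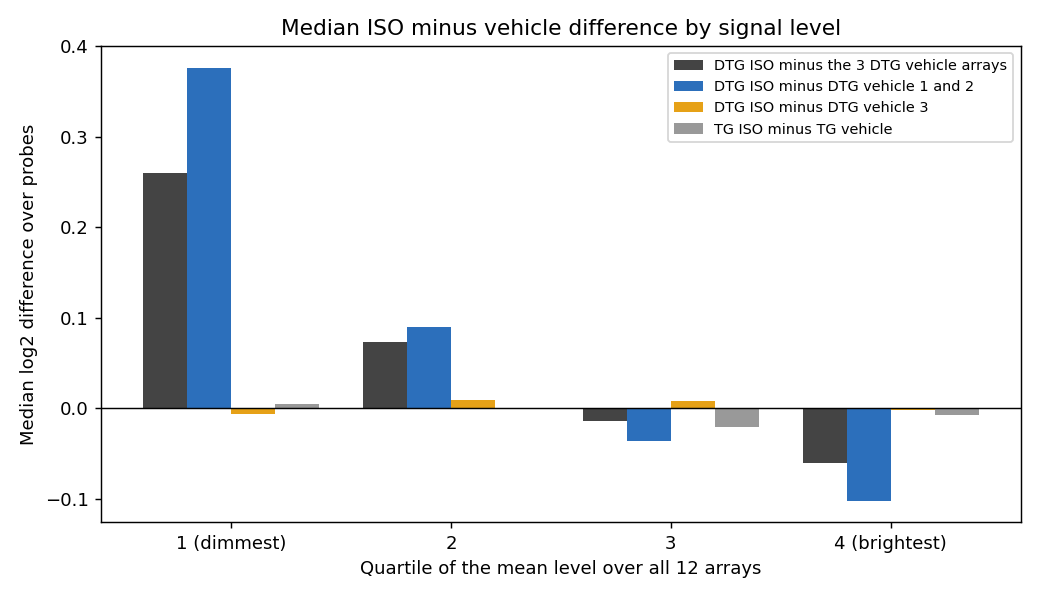
Median log2 difference between ISO and vehicle over the probes of each quartile of mean level, from the dimmest (1) to the brightest (4), for DTG ISO against all 3 DTG vehicle arrays, DTG vehicle 1 and 2, or DTG vehicle 3, and for TG. The bar of quartile 1 is 0.26 against all vehicle arrays, 0.38 against DTG vehicle 1 and 2, and -0.01 against DTG vehicle 3.

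Spread also rested on level and on the vehicle group. The median standard error of a difference was 0.45 on the log2 scale in quartile 1, 0.31 in quartile 2, 0.29 in quartile 3 and 0.28 in quartile 4. The median SD over 3 arrays was 0.22 with ISO and 0.32 with vehicle. For humanlincRNA probes these SDs were 0.26 and 0.51, the vehicle value including the gap between DTG vehicle 3 and the other arrays.

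Within the dimmest quartile of level, the lincRNA classes had higher medians than ASMM10P probes, a difference that was not tested. In quartile 1 the median difference was 0.43 for 214 humanlincRNA probes, 0.42 for 138 mouselincRNA probes, 0.49 for 21 MM9LINCRNAEXON probes, 0.25 for 10734 ASMM10P probes and 0.25 for 181 ASMM10UP probes. In quartile 2 it was 0.22 for 104 humanlincRNA probes and 0.07 for ASMM10P probes. In quartile 3 it was 0.09 for 41 humanlincRNA probes, 0.09 for 33 mouselincRNA probes, -0.05 for 10 MM9LINCRNAEXON probes and -0.01 for ASMM10P probes. In the brightest quartile, 22 humanlincRNA probes had a median of -0.03 and ASMM10P probes -0.06. Against DTG vehicle 3, quartile 1 gave -0.06 for humanlincRNA and -0.005 for ASMM10P.

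More probes were detected on the ISO arrays, again with DTG vehicle 3 near them. Among humanlincRNA probes, 30%, 34.4% and 45.6% stood well above background on DTG ISO 1, 2 and 3. On DTG vehicle 1, 2 and 3 the shares were 20.7%, 26.1% and 33.6%, so that DTG vehicle 3 exceeded DTG ISO 1. For ASMM10P the shares were 70.4%, 73.8% and 80.8% against 63.6%, 69.7% and 73.3%. The 75th percentile of the signal was 413, 403 and 540 intensity units with ISO and 319, 353 and 439 with vehicle, so that DTG ISO 3 was the highest and DTG vehicle 1 the lowest in both measures. Negative control spots were marked well above background as well, 7.33%, 7.33% and 14.3% of them with ISO and 1.67%, 7.33% and 13% with vehicle. The part of signal and background in the detection was not tested. Over the whole array, 9947 probes (16.3%) were detected on more ISO than vehicle arrays and 1138 (1.87%) on more vehicle than ISO arrays.

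A set of 166 probes (0.273%) stood well above background on all 3 ISO arrays and on no vehicle array, DTG vehicle 3 included. It held 153 ASMM10P probes, 7 ASMM10UP probes, 4 humanlincRNA probes and 2 mouselincRNA probes. The reverse pattern was found for 0 probes. For such probes the fold is a lower bound, taken against the lowest signal that counted as well above background on each vehicle array or the probe's own signal, whichever was higher. The bound exceeded 1 for 114 probes and reached 2 for 6, with a median of 1.1 over all 166, so most lay close to the limit of detection. Their limma adjusted p was at least 0.817 in every case.

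Housekeeping genes, each printed as 20 spots, gave the named transcripts of the array. The median difference over the 15 genes was -0.03 on the log2 scale, from -0.49 to 0.46, and every gene stayed within 1.5-fold. None passed the adjusted or the unadjusted threshold, and the lowest unadjusted limma p was 0.0818. Their ISO arrays lay below all vehicle arrays for 3 genes (20%), Actb, B2m and Ppia, and above them for 0, where the shares over all tested probes were 5.86% and 7.11% and the share below was 8.23% in the brightest quartile. Signal of close paralogs and pseudogenes, which several of these genes have, could add to a probe. At 11 of the 15 genes the 95% interval of the difference lay within 2-fold in either direction.

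B2m, the light chain of class I histocompatibility molecules, had levels of 6.55, 6.15 and 6.41 on the ISO arrays and 6.89, 6.62 and 7.08 on the vehicle arrays. The ISO arrays were the lowest of all 12, since the TG arrays ran from 6.76 to 7.55. The difference was -0.49 on the log2 scale (SE 0.26, 95% interval -1.06 to 0.07, limma adjusted p = 0.817), and it was -0.71 against DTG vehicle 3 and -0.38 against DTG vehicle 1 and 2. It kept its sign in all 28 alternative settings, from -0.71 to -0.38.

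Of the cytoskeletal genes, Actb encodes β-actin and Tuba1b an α-tubulin. Actb stood at 5.26, 5.35 and 4.61 with ISO and at 5.64, 5.46 and 5.47 with vehicle. The groups did not overlap, but DTG ISO 3 lay well under the other ISO arrays. Its difference was -0.45 (SE 0.24, limma adjusted p = 0.817), and -0.59 to -0.22 over the alternatives, the smallest being that without DTG ISO 3. Tuba1b stood at 7.25, 7.43 and 7.19 with ISO and at 7.68, 7.38 and 7.42 with vehicle. Its groups overlapped, and the difference was -0.20 (SE 0.20, limma adjusted p = 0.921).

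Genes of protein synthesis and folding differed little. Ppia, the prolyl isomerase cyclophilin A, had levels of 6.91, 6.85 and 6.80 with ISO and 7.23, 6.95 and 6.95 with vehicle, without overlap but by a difference of only -0.19 (SE 0.26). The gap between DTG ISO 1 and the lowest vehicle array was narrow. Hsp90ab1, a constitutive HSP90 chaperone, had a difference of 0.16 (SE 0.26), and Rpl13a, a protein of the large ribosomal subunit, one of -0.03 (SE 0.30).

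Metabolic genes covered both bright and dim probes. Gapdh, the glycolytic enzyme used as the reference transcript in the study's PCR assays, stood at 9.13, 9.18 and 8.69 with ISO and at 9.31, 9.09 and 9.00 with vehicle. The groups overlapped, and the difference was -0.13 (SE 0.25, 95% interval -0.68 to 0.41). It was -0.40 under quantile normalization and 0.0013 against DTG vehicle 3. Ldhal6b, a lactate dehydrogenase, was the dimmest housekeeping probe, at -3.69, -3.70 and -3.91 with ISO and -4.62, -4.23 and -3.83 with vehicle. DTG vehicle 3 fell among the ISO arrays. Its difference of 0.46 (SE 0.31) was 0.66 against DTG vehicle 1 and 2 and 0.07 against DTG vehicle 3, the pattern of the dim probes as a whole. Gk, glycerol kinase, had a difference of 0.19 (SE 0.27), which was 0.35 and -0.11 against the same arrays, and G6pd2, a glucose-6-phosphate dehydrogenase, 0.05 (SE 0.21).

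The remaining genes showed no separation. Hprt, of purine salvage, had the smallest standard error, with a difference of -0.02 (SE 0.16, 95% interval -0.37 to 0.34). Nono, an RNA-binding nuclear protein, had a difference of -0.03 (SE 0.21) and Tbp, the TATA-binding protein, one of -0.09 (SE 0.21). Gusb, a lysosomal glucuronidase, had 0.03 (SE 0.48) and Tfrc, the transferrin receptor, 0.21 (SE 0.43). The errors of Gusb and Tfrc take in the spread of the TG groups, which share the fit. Gusb stood at 2.52 to 2.91 on the ISO arrays and at 2.65 to 4.57 on the TG arrays, the highest being TG ISO 1 and 2 and TG vehicle 3.

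**Figure D4:**
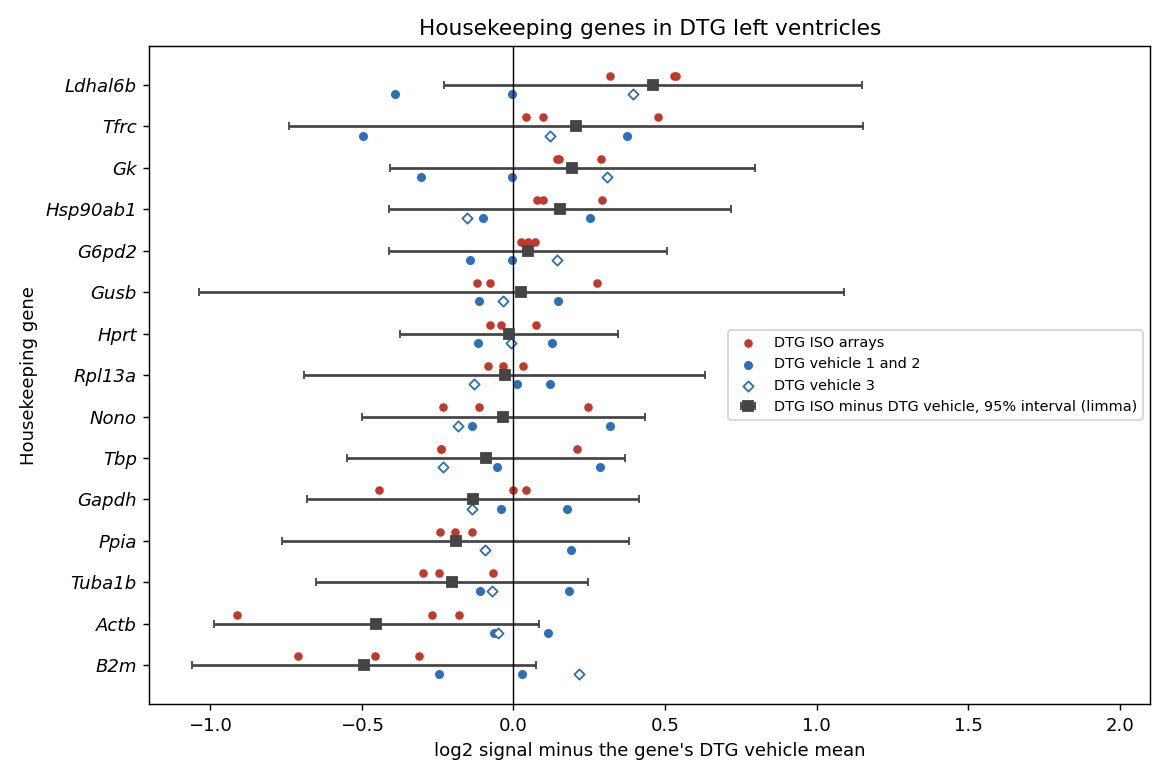
Housekeeping genes ordered by the log2 difference between DTG ISO and DTG vehicle; squares with bars are the difference and its 95% interval from limma, red points the 3 ISO arrays, filled blue points DTG vehicle 1 and 2, and open diamonds DTG vehicle 3, each minus the vehicle mean of the gene. B2m at -0.49 and Ldhal6b at 0.46 mark the ends, and every interval includes 0.

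Single probes were named by the lowest p in each class and direction among those without overlap, so their separation from vehicle is a result of that choice. All of them had a limma adjusted p of 0.817, except MM9LINCRNAEXON11641+_P1 at 0.826. The rule and the p also used DTG vehicle 3 and the spread of the TG arrays, so the values against these arrays are a description and no separate support.

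In the ASMM10P class, ASMM10P022349 stood at -0.61, -0.84 and -0.47 with ISO and at -2.16, -2.22 and -2.78 with vehicle. DTG vehicle 3 was the array furthest from ISO. The difference was 1.75 on the log2 scale (SE 0.26), a 3.36-fold higher signal, and 2.14 against DTG vehicle 3. On the 6 TG arrays the probe ran from -2.60 to -1.79, so the ISO arrays of DTG mice were the highest of all 12.

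ASMM10P050302 had levels of -0.79, -1.18 and -0.80 with ISO and -3.20, -2.59 and -2.47 with vehicle, a difference of 1.83 (SE 0.29) or 3.56-fold. Against DTG vehicle 3 alone it was 1.55. The TG arrays ran from -2.78 to -1.79, below the ISO arrays and for the most part above the vehicle arrays. Over 28 alternative settings the difference of this probe was never under 1.19, and that of ASMM10P022349 ran from 1.18 to 2.14.

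The lowest p among lower ASMM10P probes belonged to ASMM10P054478, at -4.19, -4.54 and -4.28 with ISO and at -2.69, -2.51 and -3.53 with vehicle. DTG vehicle 3 lay between the other vehicle arrays and ISO. The difference was -1.43 (SE 0.28) and -0.81 against DTG vehicle 3, with TG arrays between -3.21 and -2.68. Under normexp it was -0.65. ASMM10P031656 was lower as well, at -4.83, -4.52 and -5.15 with ISO and -1.98, -2.45 and -4.00 with vehicle. Its difference of -2.02 (SE 0.42) was -2.62 against DTG vehicle 1 and 2 and -0.84 against DTG vehicle 3, and on DTG ISO arrays it stood well above background on 2 of 3. Under normexp the difference of ASMM10P031656 was -0.87.

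In the ASMM10UP class, the higher probes were below detection with vehicle. ASMM10UP127 stood at -3.42, -3.72 and -3.57 with ISO and was not well above background on any vehicle array, where it read -6.48, -7.14 and -5.81. The signal was at least 2.14-fold higher with ISO at this scaling, but under normexp the difference was 0.40 on the log2 scale, below that bound. The offset of 50 intensity units added under normexp shrinks differences of such dim probes by construction. ASMM10UP814 stood at -3.96, -4.42 and -4.07 against -5.54, -5.28 and -5.03, again without detection on a vehicle array, and was at least 1.43-fold higher, against a difference of 0.032 on the log2 scale under normexp. For both probes the ISO arrays were above all TG arrays.

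The lower ASMM10UP probes were detected on all 6 arrays. ASMM10UP212 stood at -3.06, -3.15 and -3.94 with ISO and -2.27, -2.91 and -2.51 with vehicle, a difference of -0.82 (SE 0.32) that was -0.54 without DTG ISO 3. ASMM10UP012 stood at -1.76, -1.96 and -1.61 and at -1.30, -1.16 and -1.43, a difference of -0.48 (SE 0.21) that was -0.35 against DTG vehicle 3. The separation of DTG ISO 3 from DTG vehicle 3 was small for this probe.

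Among humanlincRNA probes, humanlincRNA1016-_P1 was bright and stood at 2.27, 2.16 and 2.12 with ISO and 1.22, 0.19 and 1.30 with vehicle. The ISO arrays were close together and above the TG range of 0.34 to 1.45. The difference was 1.28 (SE 0.33), a 2.43-fold higher signal, and 0.88 against DTG vehicle 3. humanlincRNA0229-_P1 stood at -3.38, -3.57 and -3.69 with ISO and was not well above background with vehicle, at -5.40, -5.35 and -5.19. The vehicle arrays lay close to each other, DTG vehicle 3 included, and the signal was at least 2.18-fold higher with ISO, against a difference of 0.19 on the log2 scale under normexp.

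The lower humanlincRNA probes were humanlincRNA1050+_P1 and humanlincRNA2274-_P1. The first stood at 0.87, 1.23 and -0.56 with ISO and 3.46, 2.44 and 1.99 with vehicle, a difference of -2.12 (SE 0.57) that was -1.47 against DTG vehicle 3. The arrays of each group were widely spread. The second stood at -1.88, -1.76 and -1.93 with ISO and -0.41, -1.38 and -0.62 with vehicle, a difference of -1.05 (SE 0.38) that was -1.24 against DTG vehicle 3. Its ISO levels lay within the TG range of -3.07 to -1.60.

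Among mouselincRNA probes, mouselincRNA1318+_P1 stood at -4.11, -4.20 and -3.94 with ISO and, without detection, at -4.92, -5.57 and -5.82 with vehicle. DTG vehicle 3 was the lowest of the 6, and the signal was at least 1.503-fold higher with ISO. mouselincRNA0665-_P1 stood at -1.08, -1.44 and -1.10 with ISO and -3.00, -3.14 and -1.55 with vehicle. Here DTG vehicle 3 lay next to the ISO arrays, so that the difference of 1.35 (SE 0.38) was 1.86 against DTG vehicle 1 and 2 and 0.35 against DTG vehicle 3. Of the lower probes, mouselincRNA0309-_P1 stood at -1.64, -1.39 and -1.85 with ISO and -0.95, -1.22 and -1.13 with vehicle, a difference of -0.53 (SE 0.23). mouselincRNA0344-_P1 stood at 1.74, 1.84 and 0.34 with ISO and 2.50, 1.95 and 2.13 with vehicle, a difference of -0.89 (SE 0.40). DTG ISO 3 lay far under the other ISO arrays for this probe, and without it the difference was -0.41.

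For the MM9LINCRNAEXON class, MM9LINCRNAEXON11712-_P1 stood at -2.19, -1.94 and -1.82 with ISO and -3.34, -3.11 and -2.33 with vehicle. The difference of 0.94 (SE 0.28) was 1.24 against DTG vehicle 1 and 2 and 0.35 against DTG vehicle 3. MM9LINCRNAEXON11641+_P1 stood at -3.85, -4.29 and -4.28 with ISO and -4.82, -5.44 and -4.57 with vehicle, a difference of 0.80 (SE 0.49), and it was detected on 1 of 3 vehicle arrays. Under normexp the difference of this probe was -0.03. No probe of this class was lower without overlap.

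The largest lower bounds among the 166 probes detected only with ISO belonged to ASMM10P021390 and ASMM10P023762. ASMM10P021390 stood at -4.41, -1.70 and -0.97 with ISO and at -4.98, -5.61 and -4.96 with vehicle. The ISO arrays were far apart, and the bound of at least 4.90-fold rested on DTG ISO 2 and 3. ASMM10P023762 stood at -3.51, -3.06 and -3.52 with ISO and at -5.76, -6.04 and -5.63 with vehicle, at least 2.47-fold higher. Its TG arrays ran from -4.74 to -2.99 and covered the ISO levels, so it was the vehicle group of DTG mice that stood apart from the other 9 arrays. Under normexp, the differences of the 6 named probes without detection on a vehicle array lay between 0.03 and 0.99 on the log2 scale. Normexp was run with an added offset of 50 intensity units, which shrinks log2 differences of dim probes by construction. These values therefore cannot decide whether the lower bounds depend on the background subtraction. The bounds are given for the deposited signal only.

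**Figure D5:**
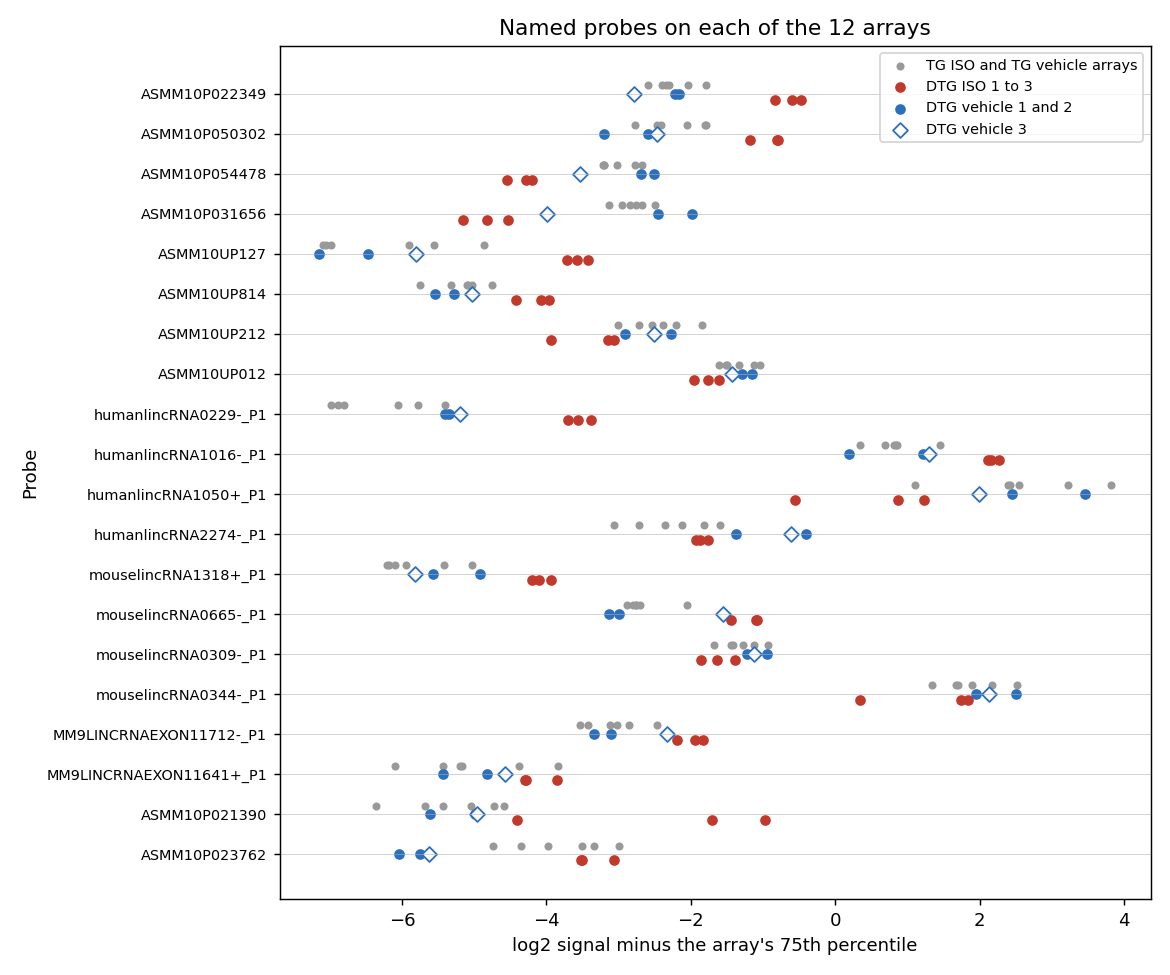
Levels of the named probes on each of the 12 arrays as log2 signal minus the 75th percentile of the array; red points are DTG ISO, filled blue points DTG vehicle 1 and 2, open diamonds DTG vehicle 3, and grey points the 6 TG arrays. ASMM10P022349 and humanlincRNA0229-_P1 show ISO arrays apart from all others, while for mouselincRNA0665-_P1 the diamond at -1.55 lies next to the ISO arrays.

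Whether ISO acted differently in DTG and TG hearts was tested by the genotype by treatment interaction. It gave 0 limma calls among the tested probes, with a lowest adjusted p of 0.927 and 1971 probes at an unadjusted p under 0.05. This count depended on the arrays and the fit, with 89 calls without DTG vehicle 3, 8 with a scan block, 9 with a slide block and 4171 with array weights. It was 1 without TG ISO 3 alone and 0 without TG vehicle 3 alone. Without both of these arrays, a setting chosen after the data were seen, 4034 probes passed the adjusted threshold for the interaction, while DTG ISO against DTG vehicle still gave 0 calls, with 4415 probes at an unadjusted p under 0.05 and a lowest adjusted p of 0.125. Median differences of ISO minus vehicle were 0.32 in DTG and 0.03 in TG hearts for humanlincRNA probes, 0.28 and -0.003 for mouselincRNA probes, and 0.04 and -0.01 for ASMM10P probes. The TG medians rest on the same 2 arrays. The humanlincRNA class stood at -4.16, -3.90 and -3.81 on TG ISO 1, 2 and 3 and at -3.69, -3.90 and -4.28 on TG vehicle 1, 2 and 3, where the third arrays had the opposite order to the first. None of the 671 lincRNA probes passed the interaction test over all arrays, and 49 had an unadjusted p under 0.05. The same held for 1971 of all 45154 tested probes and for 859 of the 11289 in the dimmest quartile of level.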

How the data were processed

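Left ventricular RNA, 12 samples in all, was hybridized to Agilent 1-color (Cy3) arrays, after removal of ribosomal RNA and random-primed amplification per the labels. The authors deposited the Feature Extraction 11.0.1.1 output of each array. The signal taken from it is an intensity that, per the file headers, had been background-subtracted and detrended within each array only. The authors also deposited log2 values normalized between arrays by a method not given in the sources used here. These values ranked probes as the same array's signal did (lowest rank correlation 0.9895), and they were used as an alternative.

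Outlier spots were left out, log2 signals had the array's 75th percentile of non-control spots subtracted, and spots of a probe were averaged. The 15 negative control probes were left out of the tests. Limma 3.58.1 in R 4.3.3 fitted 4 group means to 12 arrays with 8 residual degrees of freedom. Tests were two-sided, and p-values were adjusted by Benjamini-Hochberg across every tested probe at a threshold of 0.05. Intensities of dim probes depend on the background subtraction, and 3 arrays per group limit the precision. An exact permutation of 3 against 3 arrays cannot give a p below 0.1. Scan run came from the headers, and slides were inferred from array positions, since arrays of scan runs 2 and 3 held no position in common. The labels do not state that every array is a separate mouse, though the paper reports different biological samples and 3 per group for the arrays. The p-values measure the spread between arrays. Input was parsed by data.table, version 1.17.8, plots were made in matplotlib 3.10.9, and the fit was tested on simulated data.

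The named probes were every housekeeping gene and, in each class with at least 100 tested probes and in the rest together, the 2 with the lowest p in each direction without overlap and detected on each of the 3 arrays of either group, plus the 2 largest lower bounds. The classes, lists and rule were chosen with earlier results of these data known. Housekeeping names came from accessions in the files matched to RefSeq (15 of 15). Alternatives were quantile normalization, the median of bright probes, normexp (offset 50, on median spot signal since the files hold no mean signal), the authors' values, 3 other filters, the 6 DTG arrays alone, blocks for replicate number, scan or slide, scan run 1 alone, labelled sex, array weights, the methods' t-test, a mean-variance trend with robust prior and the omission of single arrays. Leaving out TG ISO 3 and TG vehicle 3 together, and the quartiles of level under each alternative, were added after the data were seen.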

Additional observations from a re-analysis of the deposited data

Results flagged for a closer look

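In 4 of the named genes and probes the ISO arrays lay above vehicle in one genotype and below it in the other, without overlap in DTG or in TG hearts. The interaction did not pass the threshold for any of them, with a limma adjusted p of 0.927 each, and the sign in TG hearts rests on groups that hold TG ISO 3 and TG vehicle 3. Actb had a difference of -0.45 on the log2 scale in DTG and 0.52 in TG hearts, with an interaction of -0.98 (SE 0.34). ASMM10P031656 had -2.02 in DTG and 0.33 in TG hearts. The DTG part of that probe was -0.84 against DTG vehicle 3. For humanlincRNA1050+_P1 the values were -2.12 and 1.22, the widest gap of the 4, with an interaction of -3.34 (SE 0.81). For MM9LINCRNAEXON11712-_P1 they were 0.94 and -0.58, and the DTG part was 0.35 against DTG vehicle 3. All 4 also met the rule that named probes for a low p and separation in DTG hearts.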

How the results depend on the processing

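DTG ISO against DTG vehicle gave 0 adjusted calls in all alternatives except a scan block (15, all higher and all ASMM10P), a slide block (38), array weights (1677) and leaving out DTG vehicle 3. Leaving out 1 array gave 0 to 803 calls and from 755 (DTG vehicle 1 left out) up to 6887 (DTG vehicle 3 left out) probes at an unadjusted p under 0.05. It gave 1258, 1737 and 1724 such probes without DTG ISO 1, 2 and 3, and 1266 without DTG vehicle 2, against 2636 with all arrays. That unadjusted count was 537 with a scan block, 592 with a slide block, 1658 within scan run 1, 1639 with the filter on all 12 arrays, 11363 with array weights and 4415 without TG ISO 3 and TG vehicle 3. The interaction gave 8 calls with a scan block, 9 with a slide block, 4171 with array weights, 4034 without TG ISO 3 and TG vehicle 3, and 0 to 89 with 1 array left out, 89 without DTG vehicle 3 and 1 without TG ISO 3. A scan or slide block leaves the DTG difference to DTG vehicle 3 by construction, and array weights gave DTG vehicle 3 a weight of 0.445, TG ISO 3 0.271 and TG vehicle 3 0.181. The share of probes higher with ISO among those at the unadjusted threshold was 67.7%, and 48.5% under quantile normalization, 43.6% under normexp, 51.1% with the authors' values, 48.7% with the filter on all 12 arrays and 56.9% within scan run 1.

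The humanlincRNA and mouselincRNA medians, 0.32 and 0.28, were -0.053 and -0.067 under normexp, -0.11 and -0.0698 with no filter, -0.050 and -0.057 with a scan or slide block, -0.051 and -0.057 within scan run 1, and 0.22 to 0.51 and 0.16 to 0.44 with 1 array left out. Ldhal6b at -0.044 and MM9LINCRNAEXON11641+_P1 at -0.033 changed sign under normexp, and Tbp at 0.14 and Gk at -0.11 with a scan or slide block and within scan run 1. Smaller differences, all within 1 SE of the value with all arrays, also changed sign in some settings: with a scan or slide block Nono was 0.15, Rpl13a 0.10, G6pd2 -0.097 and Gapdh 0.0013, and Hprt, Gk, Gusb and Tfrc crossed 0 in at least 1 further setting. The cause of these shifts was not tested. No named gene or probe passed the adjusted threshold except 14 probes with array weights, 9 of which also passed without DTG vehicle 3.

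With replicate number as a block there were 0 calls and 2098 probes at the unadjusted threshold. The main fit had 0 calls as well. Deviations of same-numbered ISO and vehicle arrays from their group means correlated at 0.08, -0.23 and -0.11, and those of the other pairs at -0.28 to 0.37. With few arrays per group and a vehicle group split by scan run, these values cannot decide whether the numbers pair the arrays.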
